A study of Mus musculus with 8 samples.

Results

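B cell and immunoglobulin transcripts were followed across RNA-seq libraries of sorted mouse osteoblasts, the cells that build bone matrix. The set holds 9 genes of the 21154 in the deposited count table, and all 9 had a row: Ighm, Ighd, Igkc, Ighv11-2, Igkv14-126, Cd79a, Cd79b, Ms4a1 and Jchain. They were chosen by gene symbol with the counts known, because some of them stood high in the library PBS replicate 3. The differences between that library and the others therefore carry no test here and are given as a description.

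The 8 libraries came from female Col2.3-GFP mice, in which a fragment of the Col1a1 promoter drives green fluorescent protein in bone-forming cells. Mice were 8 to 10 weeks old and received 4 intravenous injections, 1 week apart, of doxorubicin at 5 mg/kg (DOX, n = 5) or of phosphate-buffered saline (PBS, n = 3), and bone was taken 8 weeks after treatment. Doxorubicin is an anthracycline that damages DNA. After flushing, bone chips were enzyme-digested and sorted for GFP, so B cells were not the target of the sort. Batch 1 held DOX replicates 1 and 2 and PBS replicate 1, and batch 2 held DOX replicates 3, 4 and 5 and PBS replicates 2 and 3. The library titled DOX replicate 1 carries a treatment tag of PBS and was grouped by its title. The titles speak of biological replicates without saying whether each is 1 mouse, so p-values measure the spread between these libraries. Library totals ran from 39419027 to 44151882 counts in DOX and from 40985302 to 44299591 in PBS.

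B cells carry a surface antibody made of heavy and light chains, and each B cell clone joins its own variable (V) segments to constant regions. Ighm and Ighd encode the constant regions of the IgM and IgD heavy chains, and Igkc that of the kappa light chain. Ighv11-2 is a heavy V segment and Igkv14-126 a kappa V segment; in mice this pair is known from B-1 cells whose antibodies bind phosphatidylcholine. Cd79a and Cd79b encode the signalling chains of the antigen receptor, and Ms4a1 encodes CD20, a surface protein of mature B cells. Jchain encodes the joining chain that antibody-secreting cells add to polymeric IgM and IgA.

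The reference sequences of the V segment pair are shown because they name the heavy and light chain on which the counts of PBS replicate 3 converged. The first 300 bases of each coding part are given, from the GENCODE M21 transcripts on the build GRCm38, whereas the counts were made on GRCm39. Capitals mark the first exon, which begins the leader peptide, and lower case marks the exon with the V region proper. The whole coding part of Ighv11-2 lies on the minus strand at chr12:114048241-114048704 and that of Igkv14-126 on the plus strand at chr6:67896177-67896642.
Ighv11-2: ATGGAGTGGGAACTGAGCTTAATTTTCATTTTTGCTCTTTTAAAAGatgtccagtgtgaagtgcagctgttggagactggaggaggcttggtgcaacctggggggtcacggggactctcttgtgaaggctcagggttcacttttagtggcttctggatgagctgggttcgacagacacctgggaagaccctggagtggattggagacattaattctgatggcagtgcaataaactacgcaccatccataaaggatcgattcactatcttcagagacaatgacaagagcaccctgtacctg
Igkv14-126: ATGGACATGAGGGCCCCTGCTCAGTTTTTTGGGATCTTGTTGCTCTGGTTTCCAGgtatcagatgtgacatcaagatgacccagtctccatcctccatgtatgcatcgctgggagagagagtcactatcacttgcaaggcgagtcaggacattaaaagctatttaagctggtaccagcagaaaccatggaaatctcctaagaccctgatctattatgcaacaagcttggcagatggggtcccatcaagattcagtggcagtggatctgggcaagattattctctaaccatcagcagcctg
Both coding parts are 353 bases long, with 46 bases in the first exon of Ighv11-2 and 55 in that of Igkv14-126. Among 162 other annotated heavy V sequences the nearest to Ighv11-2 was Ighv11-1, with 98.9% identity and 4 mismatches, so reads of this near-identical pair could be split or swapped. Among 131 other kappa V sequences the nearest to Igkv14-126 was Igkv14-111, with 91.5% identity. Neither neighbour was analysed here.

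Both V segments were counted almost in PBS replicate 3 alone. Ighv11-2 had 2129 counts in PBS replicate 3 and 0 in each of the other 7 libraries. Its level of 60.3 CPM (counts scaled to library size, with TMM factors) in PBS replicate 3 was at least 737-fold higher than a floor of 3 counts per library in any other. Igkv14-126 had 5352 counts in PBS replicate 3, 1 in DOX replicate 1 and 0 in the other 6 libraries. Counting intervals and floors cover counting error only, since the kit amplifies by PCR and no molecular identifiers are named.

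The constant regions of the same antibody class stood high in the same library, on top of a level present in every library. Ighm had 13875 counts in PBS replicate 3. The other libraries had 296, 172, 791, 1167 and 695 counts of Ighm in DOX replicates 1 to 5, and 248 and 552 in PBS replicates 1 and 2. In CPM, Ighm stood at 393 for PBS replicate 3; the next highest library, DOX replicate 4, had 27.0, a ratio of 14.6. Igkc had 10368 counts in PBS replicate 3, against 2, 6, 160, 372 and 102 in DOX replicates 1 to 5 and 28 and 71 in PBS replicates 1 and 2. This amounts to 294 CPM in PBS replicate 3 and 8.59 CPM in DOX replicate 4, a ratio of 34.2. Both constant genes thus ranked PBS replicate 3 first and DOX replicate 4 second.

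The joining chain transcript, like the V segments, was concentrated in PBS replicate 3. Jchain had 3951 counts in PBS replicate 3, against 0, 4, 5, 5 and 2 in DOX replicates 1 to 5 and 0 and 3 in PBS replicates 1 and 2. Its 112 CPM in PBS replicate 3 were 909 times the 0.123 CPM of DOX replicate 3, the next highest. Per 100 counts of Ighm there were 28.5 counts of Jchain in PBS replicate 3 and at most 2.33, in DOX replicate 2, elsewhere.

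The receptor chains did not single out PBS replicate 3. Cd79a had 155 counts in PBS replicate 3, against 70, 2, 108, 291 and 62 in DOX replicates 1 to 5 and 37 and 85 in PBS replicates 1 and 2. Cd79b had 136 counts in PBS replicate 3, against 49, 8, 54, 214 and 58 in DOX replicates 1 to 5 and 42 and 57 in PBS replicates 1 and 2. For both genes DOX replicate 4 was highest, at 6.72 CPM for Cd79a and 4.94 CPM for Cd79b, with PBS replicate 3 second at 4.39 and 3.85 CPM. Ms4a1 had 31 counts in PBS replicate 3, against 0, 0, 11, 134 and 11 in DOX replicates 1 to 5 and 12 and 30 in PBS replicates 1 and 2. CD20 transcripts were therefore also highest in DOX replicate 4, at 3.10 CPM, with 0.878 CPM in PBS replicate 3. Ighd had 39 counts in PBS replicate 3, against 16, 17, 48, 18 and 23 in DOX replicates 1 to 5 and 55 and 14 in PBS replicates 1 and 2. Its order depended on the scaling: DOX replicate 3 came first with TMM (1.18 CPM, against 1.11 in PBS replicate 3), and PBS replicate 1 came first with plain library totals.

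**Figure D1:**
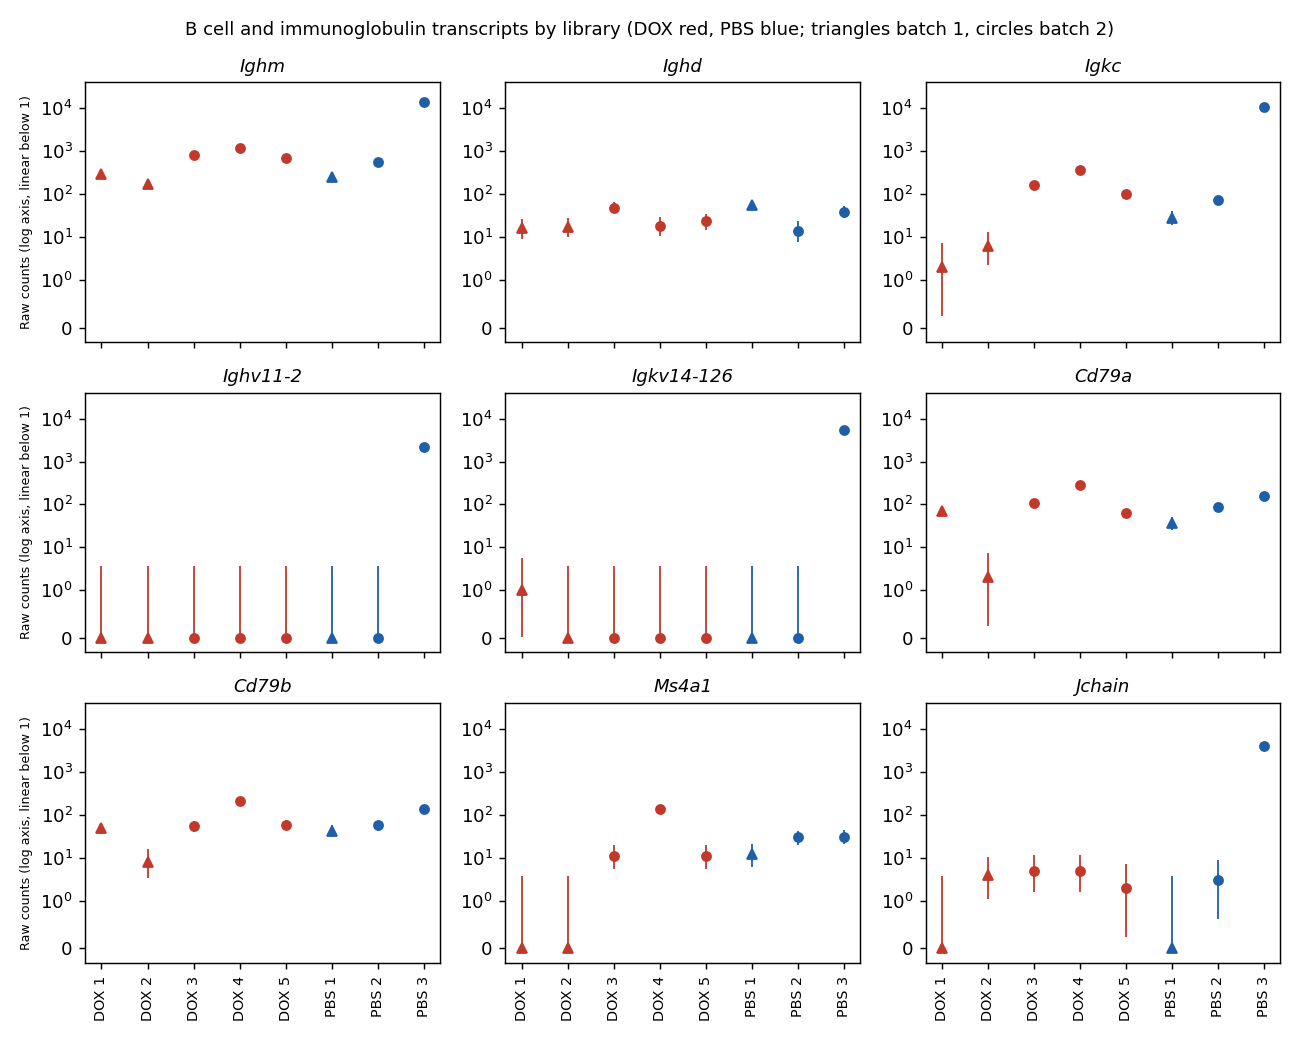
Raw counts of the 9 genes in each library on a log axis that is linear below 1, with DOX libraries in red and PBS libraries in blue, triangles for batch 1 and circles for batch 2, and exact 95% Poisson intervals as bars. Ighm, Igkc, Ighv11-2, Igkv14-126 and Jchain peaked in PBS replicate 3, while Cd79a, Cd79b and Ms4a1 peaked in DOX replicate 4.

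In sum, the 9 genes held 36036 counts in PBS replicate 3, or 0.0823% of that library. DOX replicates 1 to 5 held 434, 209, 1177, 2201 and 953 counts of them, and PBS replicates 1 and 2 held 422 and 812. Of 16237 genes with at least 50 counts in total, 4 had at least 90% of their counts in PBS replicate 3, and all 4 belong to the set: Ighv11-2 with all of its counts, Igkv14-126 (99.98%), Jchain (99.5%) and Igkc (93.3%). The same rule found 1 gene in DOX replicate 1, 2 in DOX replicate 2, 0 in DOX replicates 3, 4 and 5, and 4 each in PBS replicates 1 and 2, none of them in the set. Since the set was chosen on these counts, this describes how far it stands out and supports nothing further. In bulk libraries, more cells of a type and more RNA per cell cannot be told apart.

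In PBS replicate 3, 1 heavy and 1 kappa V segment made up nearly all V counts. The table holds 35 V rows, of which 16 are heavy, 16 kappa and 3 lambda. Ighv11-2 took 2129 of 2203 heavy V counts in PBS replicate 3, a share of 96.6% (exact Clopper-Pearson 95% interval 95.8 to 97.3%). Igkv14-126 took 5352 of 5450 kappa V counts there, a share of 98.2% (97.8 to 98.5%). No other V row reached 50 counts in any library.

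The remaining V segments had few counts in every library. The other heavy segments had 74 counts in PBS replicate 3, led by Ighv9-3 with 18, and the other kappa segments had 98, led by Igkv5-43 with 38. In DOX replicate 4, with the most V counts after PBS replicate 3, 9 heavy segments shared 57 counts and 8 kappa segments shared 136. The leaders there were Ighv1-5 with 22.8% of heavy counts (95% interval 12.7 to 35.8%) and Igkv6-23 with 28.7% of kappa counts (21.2 to 37.0%). In DOX replicate 3 the leaders were Ighv1-26, level with Ighv1-55 at 8 of 25 counts, and a kappa segment with 33 of 81. PBS replicate 2 had 23 heavy V counts and 0 kappa V counts, and PBS replicate 1 had 0 heavy and 21 kappa, of which 17 were Igkv17-121. Totals of this size leave the makeup of those libraries poorly resolved.

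**Figure D2:**
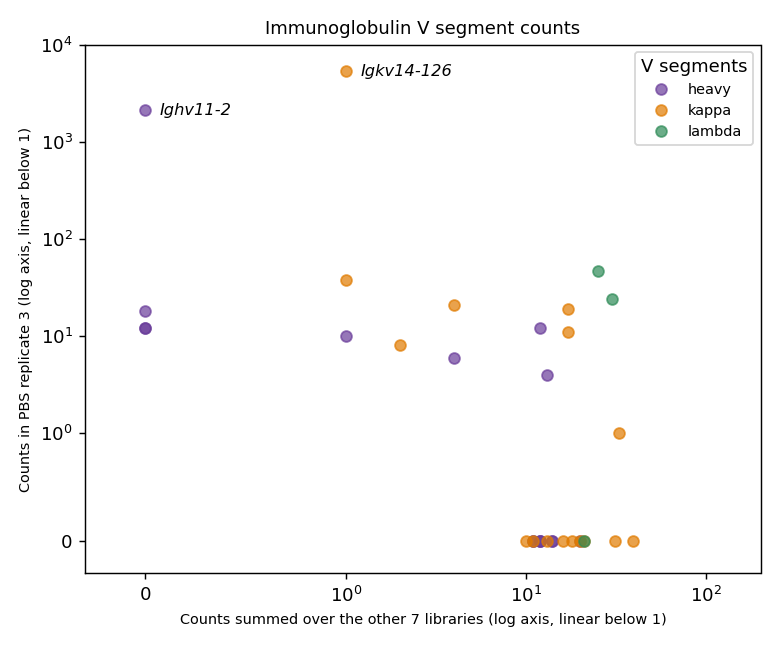
Each point is 1 of the 35 V segment rows, with its counts in PBS replicate 3 on the vertical axis and its counts summed over the other 7 libraries on the horizontal axis, both on log axes that are linear below 1. Igkv14-126 and Ighv11-2, at 5352 and 2129 counts, stand far above the remaining rows, of which the highest, Iglv2, had 47 counts in PBS replicate 3.

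The balance of the constant regions also differed in PBS replicate 3. The ratio of Igkc to Ighm counts was 0.747 in PBS replicate 3 (counting interval 0.728 to 0.767). It was 0.00676, 0.0349, 0.202, 0.319 and 0.147 in DOX replicates 1 to 5, and 0.113 and 0.129 in PBS replicates 1 and 2. Every other library thus carried far more mu than kappa reads, most of all DOX replicate 1 with 296 counts of Ighm and 2 of Igkc. Lambda constant genes added 180 counts in PBS replicate 3, made up of 77 for Iglc1, 78 for Iglc2 and 25 for Iglc3, and at most 91, in DOX replicate 4, elsewhere. Kappa took 98.3% of light constant counts in PBS replicate 3. Its share was 78.8, 80.3 and 97.1% in DOX replicates 3, 4 and 5 and 72.4% in PBS replicate 2. DOX replicates 1 and 2 and PBS replicate 1 had 0 lambda constant counts beside 2, 6 and 28 of Igkc, so PBS replicate 3 did not have the highest kappa share.

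IgD and IgA heavy chains were not high in PBS replicate 3 as IgM was. Per 100 counts of Ighm there were 0.281 counts of Ighd in PBS replicate 3. The lowest value elsewhere was 1.54, in DOX replicate 4, and the highest 22.2, in PBS replicate 1. Igha, the constant region of IgA, had 1 count in PBS replicate 3 and at most 20, in DOX replicate 3. Constant genes of the IgG and IgE classes were not analysed here.

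Set per kilobase of exon in the GENCODE M21 annotation, the light chain led in PBS replicate 3. Counts per kilobase were 19489 for Igkc, 14950 for Igkv14-126, 7357 for Ighm, 4618 for Ighv11-2 and 1570 for Jchain in that library. Cd79a and Cd79b came to 106 and 95.0 counts per kilobase there. DOX replicate 4 had 699 for Igkc, 619 for Ighm, 200 for Cd79a and 150 for Cd79b per kilobase. The gap between immunoglobulin and receptor transcripts was thus wide in PBS replicate 3 and narrow in DOX replicate 4. These lengths come from another build and release than the counts and are approximate.

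Setting the constant regions against the receptor chains separates PBS replicate 3 from the rest. There were 35.6 counts of Igkc for each count of Cd79a plus Cd79b in PBS replicate 3. The same ratio was 0.0168, 0.6, 0.988, 0.737 and 0.850 in DOX replicates 1 to 5, and 0.354 and 0.500 in PBS replicates 1 and 2. For Ighm the ratio was 47.7 in PBS replicate 3 and at most 17.2, in DOX replicate 2, where Cd79a and Cd79b summed to 10 counts. Where the antibody transcripts in PBS replicate 3 came from was not tested.

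**Figure D3:**
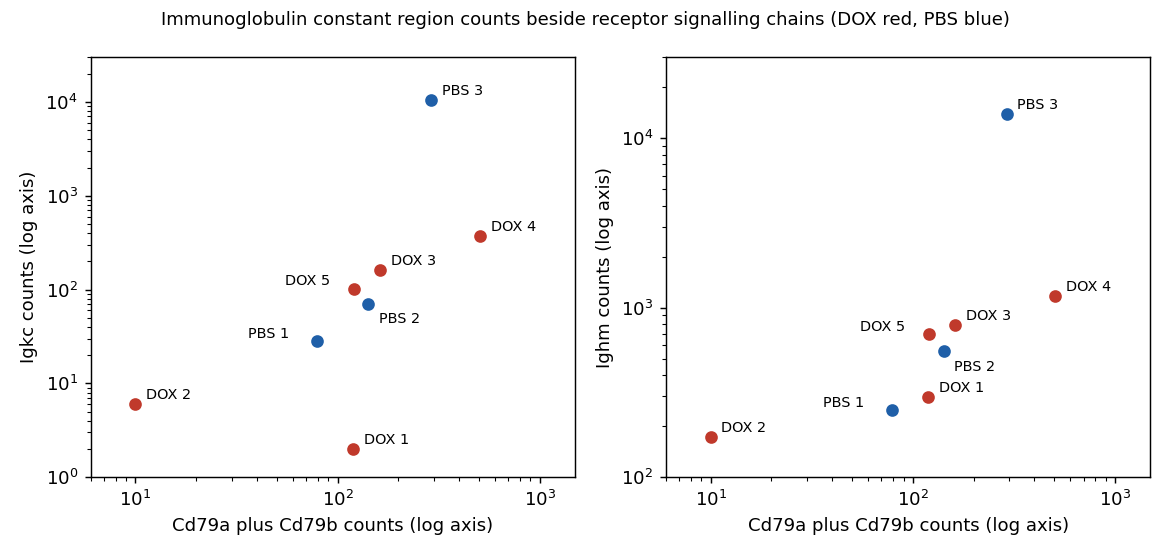
Counts of Igkc (left) and Ighm (right) in each library against the summed counts of Cd79a and Cd79b, on log axes, with DOX libraries in red and PBS libraries in blue. PBS replicate 3 lies far above the other libraries at 35.6 counts of Igkc and 47.7 of Ighm per count of Cd79a plus Cd79b.

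Other B lineage genes were modest in PBS replicate 3. The B lineage list has 26 genes, 25 of them measured, and includes Cd79a, Cd79b and Ms4a1. It summed to 141 CPM in PBS replicate 3, within the range of 84.8 to 143 CPM of the other libraries, and most of that sum came from Ebf1 and Ralgps2, which all libraries carried (45.3 and 54.2 CPM in PBS replicate 3). Of the 25 genes 5 were highest in PBS replicate 3, with Blnk, Pou2af1, Ralgps2 and Tnfrsf13c among them. Tnfrsf13c, the receptor for the survival factor BAFF, had 30 counts in PBS replicate 3 and at most 11, in DOX replicate 4, elsewhere. Of the list, Cr2 was at 0 in PBS replicate 3, and Ptprc, which encodes the pan-leukocyte protein CD45, had 11 counts there and 67 in DOX replicate 4.

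Genes of antibody secretion other than Jchain did not stand out in PBS replicate 3 to a like degree. The plasma cell list has 14 genes, of which 13 were measured. In CPM 8 of them, Jchain included, were highest in PBS replicate 3, most of them by little. How many of all genes were highest there is not given here, which also limits such counts for the B lineage and B-1 lists. Xbp1, the transcription factor of the secretory program, had 419 CPM in PBS replicate 3 and 385 CPM in the next highest library. Txndc5, a folding enzyme, had 399 CPM in PBS replicate 3 and at most 376 CPM elsewhere. Both were abundant in every library and are also used by matrix-secreting cells. Prdm1, which encodes the plasma cell regulator Blimp-1, had 0 counts in PBS replicate 3, which allows up to 3, and 24 in DOX replicate 1. Irf4 had 18 counts in PBS replicate 3 and 19 in DOX replicate 4, or 0.510 and 0.439 CPM. Mzb1, a chaperone that helps B cells assemble IgM, had 5 counts in PBS replicate 3, while DOX replicate 1 had 4. Sdc1, which encodes CD138, had 18.3 CPM in PBS replicate 3 and 81.1 CPM in PBS replicate 1, the highest.

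Of 11 listed genes tied to B-1 cells 9 were measured and 0 were highest in PBS replicate 3. Itgam and Zbtb32 had 0 counts there, but at most 6 and 15 counts in any library. Spn had 42 counts (1.19 CPM) in PBS replicate 3, near the highest value of 1.27 CPM, in DOX replicate 2, and above the median of 0.716 CPM elsewhere. Bhlhe41, a transcription factor of B-1 cells, had 121 counts in PBS replicate 3 and 843 in DOX replicate 1. Cd9, by far the most abundant gene of this list, had 726 CPM in PBS replicate 3 and 972 CPM in the highest library, and is not restricted to B cells. Whether the V segment pair came from B-1 cells was not tested.

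Among genes for presenting antigen, Cd74, the invariant chain of MHC class II molecules, was highest in PBS replicate 3 with 355 counts. It had 63, 28, 67, 196 and 164 counts in DOX replicates 1 to 5 and 35 and 70 in PBS replicates 1 and 2. H2-Ob had 30 counts in PBS replicate 3 and 29 in DOX replicate 4. The class II chain genes H2-Aa, H2-Ab1 and H2-Eb1 had 10, 51 and 22 counts in PBS replicate 3, inside their ranges elsewhere.

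In summed CPM the neutrophil, macrophage and osteoclast lists were lowest in PBS replicate 3, and the erythroid list was not. The neutrophil list, with 9 of 10 genes measured, summed to 0.538 CPM in PBS replicate 3 and to between 8.34 and 122 CPM elsewhere, and Elane, Ltf and Ngp were at 0. The monocyte and macrophage list, with 9 of 10 genes measured, was lowest there too, but by little, at 4.87 CPM against 5.15 to 9.46 CPM. Mpeg1, C1qa and C1qb were at 0 there, though C1qa had counts in PBS replicate 1 alone. Adgre1 went the other way, with 32 counts (0.906 CPM) in PBS replicate 3. In the other libraries its median was 0 and its highest value 0.930 CPM, in DOX replicate 1. Of the 9 measured T cell genes 6 were at 0 in PBS replicate 3, Cd3d, Cd4 and Trac among them. The T cell list summed to 0.765 CPM there, inside the range of 0.243 to 1.66 CPM elsewhere. Of the 7 endothelial genes 6 were at 0, all but Pecam1. Their sum of 1.42 CPM in PBS replicate 3 was nonetheless inside the range of 0.788 to 16.7 CPM elsewhere. The erythroid list of 9 genes summed to 96.7 CPM in PBS replicate 3, the third highest of 8, and to between 53.4 and 227 CPM elsewhere. Of that sum 85.7 CPM were Car2, a carbonic anhydrase that osteoclasts also use. The beta globin gene Hbb-bs had 4.45 CPM in PBS replicate 3, above the median of 1.82 CPM and below the highest value of 56.2 CPM in the others. The osteoclast list, with 5 of 7 genes measured, summed to 278 CPM in PBS replicate 3 and to between 323 and 428 CPM elsewhere. Most of that sum was Ctsk, at 266 CPM in PBS replicate 3. The osteoblast list of 11 genes summed to more CPM in PBS replicate 3 (536293) than in any other library (201936 to 525087). Most of that sum was Col1a1 and Col1a2, at 271900 and 207800 CPM there. Of the 11 genes 7 were highest there, a share not given for all genes. Spp1 and Dmp1 had 4268 and 533 CPM there, below their medians of 6161 and 644 CPM elsewhere. The labelled cell type was thus present by its markers. Whether these differences bear on the antibody counts was not tested.

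The genes most like Igkc across the 8 libraries were sought among 16236 others by the correlation of log2 CPM. This is a description over libraries of both batches, and Igkc was itself higher in batch 2, so batch can shape the ranking. Ighm had r = 0.96 and had rank 5, after Tle5, Slc1a1, Stac3 and Tnfrsf13c. Cd52, a surface protein of lymphocytes, had rank 7 with r = 0.95. Galnt18, Tfpi2, 1700028J19Rik and Trim14 complete the leading 10, with r from 0.93 to 0.96. None of these genes had the concentration in PBS replicate 3 that Igkc had (93.3%). Ighm came nearest with 78.0% of its counts there, while Tle5 had 12.8%, Slc1a1 40.3% and Tnfrsf13c 54.5%. Jchain (r = 0.85), Ighv11-2 (0.79) and Igkv14-126 (0.77) ranked lower, with counts at or near 0 in every other library.

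Several genes of the set were higher in batch 2 than in batch 1, with or without PBS replicate 3. Of the 6 genes of the set that passed a filter on low counts, 5 had every batch 2 library above every batch 1 library in CPM: Ighm, Igkc, Cd79a, Cd79b and Ms4a1. Over all 15373 genes that passed, 4.89% did so. Without PBS replicate 3 the same 5 genes were separated, against 5.8% of all genes. Ighd was not separated. The count depended on the scaling: with RLE factors the same 5 genes were separated (all genes 4.7%, or 5.59% without PBS replicate 3). With totals that leave out Col1a1 and Col1a2, Cd79a was lost and 4 remained (1.83%, or 2.45% without that library). With plain library totals only Ighm and Igkc remained (1.25%, or 1.74%), since Cd79a, Cd79b and Ms4a1 then overlapped between the batches. Igkc ran from 1.94 to 8.59 CPM in the 4 remaining batch 2 libraries and from 0.0404 to 0.526 CPM in the 3 of batch 1. Ighm ran from 15.1 to 27.0 CPM in those batch 2 libraries and from 4.27 to 5.98 CPM in batch 1. Summed V segment counts were 435 in those 4 libraries and 31 in the 3 of batch 1.

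The wider B lineage list leaned the same way. Of its 22 genes that passed the filter 13 had every batch 2 library above every batch 1 library (all genes 4.89%). With plain library totals 7 did (all genes 1.25%). In both cases 0 had the reverse, for which no share of all genes is given here. The 13 count Cd79a, Cd79b and Ms4a1 again. They include Spib, a B cell transcription factor, Pou2af1, the octamer coactivator of immunoglobulin genes, and Vpreb3, Fcrla, Cd72 and Cd22. Fcrla, for instance, had 22, 104 and 64 counts in DOX replicates 3 to 5 and 48 and 46 in PBS replicates 2 and 3, against 0 in each batch 1 library. The pro-B and pre-B list went both ways. Of 7 genes 2 were higher in batch 2 (Rag1 and Il7r, all genes 4.89%) and 2 lower (Igll1 and Lef1), or 3 lower without PBS replicate 3. For the lower genes no share of all genes is given here. Rag1 had 6 counts in PBS replicate 1 of batch 1 and 6 in PBS replicate 2 of batch 2, so its separation came from the scaling. With plain library totals Il7r alone was higher (all genes 1.25%), and Vpreb1 and Igll1 were lower. The labels do not say what the batch stands for, and this split was seen in the data before it was counted.

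The treatment question is whether B cell transcripts differed between DOX and PBS osteoblast libraries 8 weeks on. No gene of the set passed in edgeR's quasi-likelihood test with batch as a term, where 0 of 15373 genes (0.0%) had an adjusted p under 0.05 and 571 (3.71%) an unadjusted p under 0.05. Ighm and Igkc, 2 of the 6 genes of the set that could be tested, were among those 571. In all 9 genes the DOX and PBS libraries overlapped. Ighv11-2, Igkv14-126 and Jchain did not pass the filter on low counts and have no fold change. Outside PBS replicate 3 they had at most 0, 1 and 5 counts in a library. Igkc averaged 3.04 ± 3.51 CPM in DOX (SD, n = 5) and 98.7 ± 169 CPM in PBS (SD, n = 3), and its log2 fold change was -4.68 ± 1.23 (SE; edgeR adjusted p = 0.995). Ighm averaged 14.7 ± 9.51 CPM in DOX (SD, n = 5) and 138 ± 221 CPM in PBS (SD, n = 3), and its log2 fold change was -2.41 ± 0.94 (SE; edgeR adjusted p = 0.995).

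Both values rested on PBS replicate 3, the library on which the set was chosen. Without it the log2 fold change of Igkc was -0.47 ± 0.94 (SE), and that of Ighm was 0.32 ± 0.24, on the other side of 0. The remaining PBS libraries averaged 1.23 CPM for Igkc and 9.86 CPM for Ighm. Cd79a averaged 2.47 ± 2.55 CPM in DOX (SD, n = 5) and 2.47 ± 1.85 CPM in PBS (SD, n = 3), and its log2 fold change was 0.11 ± 0.74 (SE). For Cd79b the log2 fold change was -0.19 ± 0.61, for Ms4a1 -0.90 ± 1.25 and for Ighd -0.59 ± 0.63 (SE). Standard errors of this size leave room for changes of severalfold in either direction in these receptor genes.

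**Figure D4:**
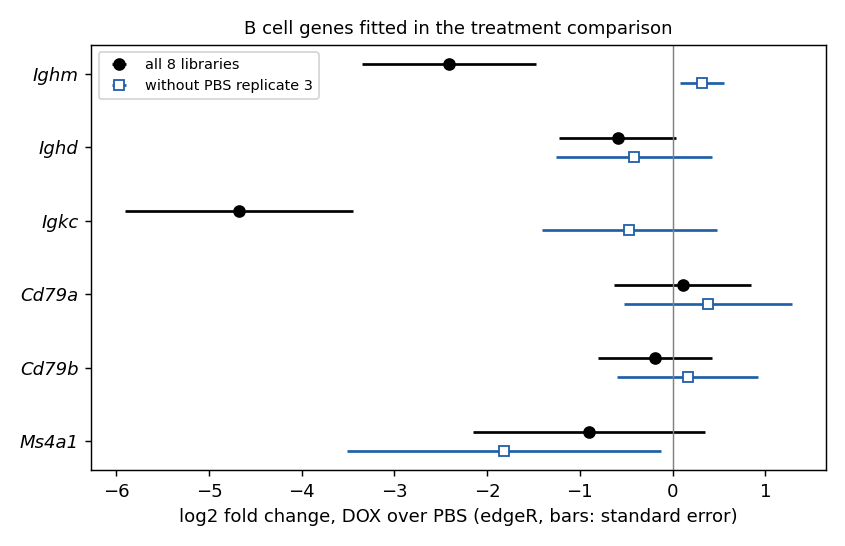
Log2 fold changes of DOX over PBS for the 6 genes that passed the filter, from edgeR with batch as a term, with standard errors as bars, for all 8 libraries (filled circles) and without PBS replicate 3 (open squares). Igkc lies at -4.68 with all libraries and at -0.47 without PBS replicate 3, and Ighm at -2.41 and 0.32.

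Over the wider lists the treatment comparison also gave 0 calls. Of the 22 B lineage genes tested 5 had a log2 fold change above 0 and 17 below, with a median of -0.41, against 0.02 over all 15373 genes tested. Without PBS replicate 3 there were 7 above and 15 below, with a median of -0.53. Blnk, an adaptor of receptor signalling, was at -0.89 ± 0.37 (SE; unadjusted p = 0.0383, adjusted p = 0.995 in edgeR). The 9 erythroid genes lay below 0 as well, with 0 above and a median of -0.75. Among these, 2 had an unadjusted p under 0.05 in edgeR (all genes 3.71%). Without PBS replicate 3 their median was -0.55, and 0 had an unadjusted p under 0.05 (all genes 501 of 16432). Whether the shifts of these lists are linked was not tested. Of 21 receptor signalling genes tested 9 lay above 0 and 12 below, with a median of -0.05. Of 9 plasma cell genes tested 1 lay above 0 and 8 below, with a median of -0.11, and without PBS replicate 3 the split was 5 above and 4 below.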

How the data were processed

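Messenger RNA of GFP-sorted osteoblasts was sequenced after SMART-Seq v4 Plus amplification, which does not mark strand. The deposited table holds raw counts per gene symbol for 21154 genes, 1 column per library. STAR 2.7.9a, featureCounts 2.0.1, Trim Galore 0.6.6, SAMtools 1.17, MultiQC 1.7, FastQC 0.11.5 and the build GRCm39 are named, without roles or settings, in the submitters' processing notes. Annotation and multi-mapping: not given in the sources used here. No row had under 10 counts in total, and V segments below that were not analysed here, and reads of near-identical segments are uncertain.

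Counts were tested in R 4.3.3 with edgeR 4.0.16 (quasi-likelihood, TMM, filterByExpr, batch and group as terms, two-sided, Benjamini-Hochberg over 15373 genes), and limma 3.58.1 and DESeq2 1.42.0 served as alternatives, beside RLE factors, no filter, no batch term, a replicate block, batch 2 alone, DOX replicate 1 counted as PBS, and each library left out. The procedure was tested on simulated data. CPM uses TMM-adjusted library sizes, and log2 CPM has a prior count of 2. Figures used matplotlib 3.10.9 in Python 3.11.15. Each standard error is the fold change divided by the root of its F statistic. The genes, the 15 gene lists and the rules for naming genes were chosen with earlier results of these data known. Named were the 9 genes, the constant genes, V rows with at least 50 counts in a library, the 10 genes most like Igkc, genes with at least 90% of at least 50 counts in PBS replicate 3, and the 4 genes per list with most counts there; the other V rows and list genes named were chosen after their values were seen. V segment sequences were read from GENCODE M21 by transcript name. Values of 1 list gene are not reported here.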

Additional observations from a re-analysis of the deposited data

Results flagged for a closer look

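Within the 5 DOX libraries, 8 genes of the set had a range above 0 and were checked for a library whose gap to its nearest neighbour exceeds 0.71 of the whole range. For normally distributed values such a gap arises by chance in about 1 in 20 groups. Whether that rate holds for low, skewed counts like these was not tested, so the flags are a description. DOX replicate 4 stood apart as high for Ms4a1 (gap of 0.912 of the range; 134 counts there and 0, 0, 11 and 11 in DOX replicates 1, 2, 3 and 5) and for Cd79b (0.747; 214 counts there and at most 58 in the other DOX libraries). DOX replicate 3 stood apart as high for Ighd (0.73; 48 counts there and 16, 17, 18 and 23 in the other DOX libraries). Igkv14-126 in DOX replicate 1 had a gap of 1.0, which rests on 1 count against 0 in the other DOX libraries.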

How the results depend on the processing

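The number of genes called between DOX and PBS was 0 under every alternative run except DESeq2, which called 15, none of them in the set or the lists. It was 0 without each library in turn. The replicate block (replicate number in place of batch) also gave 0 calls, with 468 genes at an unadjusted p under 0.05 in edgeR. Deviations of same-numbered libraries correlated at 0.248, -0.054 and 0.245 for numbers 1, 2 and 3. For numbers 1 and 3, but not 2, the same-numbered DOX library was the best match. The DOX and PBS libraries numbered 1 share a batch, as do those numbered 3, but not those numbered 2. These correlations can therefore neither show nor exclude a pairing by number.

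Of 96 alternative values of the 6 log2 fold changes, 84 kept their direction and 12 reversed, and none was called. Cd79a turned to -0.17 in limma-voom, -1.16 with the replicate block and -0.80 with DOX replicate 1 counted as PBS, and ran from -0.57 to 0.38 with 1 library left out, below 0 without DOX replicate 1, DOX replicate 4 or PBS replicate 2. Ms4a1 turned to 0.19 with no batch term and 0.53 in batch 2 alone, and ran from -2.64 to 0.53 with 1 library left out, above 0 without PBS replicate 1. With 1 library left out, Ighm ran from -3.26 to 0.32, Cd79b from -0.76 to 0.16 (above 0 without DOX replicate 2 or PBS replicate 3), Igkc from -5.48 to -0.47 and Ighd from -1.04 to -0.04. The lowest adjusted p of Igkc under any alternative was 0.117 in edgeR, without PBS replicate 2. In that fit PBS replicate 3, the library on which the set was chosen, is the only PBS library of batch 2. This p therefore rests on the value used for choosing and supports nothing further. The causes of these shifts were not tested.

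The summed level of the 9 genes in PBS replicate 3, 1021 CPM, was 823 CPM with plain library totals and 1341 CPM with totals that leave out Col1a1 and Col1a2, by construction. With constant genes in the denominator Ighv11-2 took 13.2% and Igkv14-126 33.8%, and with lambda segments added Igkv14-126 took 96.9%. Of the single levels per gene and library, 170 alternative values stayed within the counting interval of the value given and 46 did not; of the leading V shares, 8 stayed and 13 moved. PBS replicate 3 or DOX replicate 4 stayed highest under each scaling for every gene of the set except Ighd. In a check of scaling chosen after seeing the data, plain library totals cut the genes with every batch 2 library above every batch 1 library. They were then 2 of the set, 7 of the B lineage list and 1 of the pro-B and pre-B list, with or without PBS replicate 3. Over all genes the share was 1.25% with these totals, or 1.74% without that library. The low V segment totals outside PBS replicate 3 limit what can be said of those libraries.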

Other observations

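Of the genes of early B cell development, Rag1, Rag2, Vpreb1, Igll1, Dntt and Il7r had at most 128 counts in any library. Lef1, on the same list, had up to 267, in DOX replicate 1, and 24 in PBS replicate 3. Rag1, which cuts DNA for V segment joining, had 65 counts in PBS replicate 3, against 0, 0, 33, 46 and 24 in DOX replicates 1 to 5 and 6 and 6 in PBS replicates 1 and 2, while Rag2, its partner, had 0 counts in PBS replicate 3 and at most 12, in DOX replicate 4. Vpreb1 and Igll1, which encode the surrogate light chain, had 31 and 12 counts in PBS replicate 3. Igll1 had 44, 26, 6, 21 and 0 counts in DOX replicates 1 to 5 and 82 and 0 in PBS replicates 1 and 2, and Dntt, the enzyme that adds bases at V segment joints, had at most 9 counts in any library. Il7r, the interleukin-7 receptor, had 37 counts in PBS replicate 3 and 128 in DOX replicate 4, the library with the most Cd79a, Cd79b and Ms4a1 counts. The J segment row Ighj1 had 14 counts in PBS replicate 3, 1 in PBS replicate 2 and 0 elsewhere.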
